A study of Mus musculus with 20 samples.

Results

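Mfsd2b encodes a membrane transporter of the major facilitator superfamily, and its 13 introns are described here one by one in nascent RNA of mouse erythroleukemia (MEL) cells. The 13 introns are all those listed for the gene among the 68794 introns of the first deposited table, and 11 of them are also among the 6537 introns of the second. They were collected by mapping the transcript identifier to its symbol in the GENCODE mouse annotation. The gene itself was chosen by the read counts of intron 11, which stood out between cells before and after induction. The differences in splicing between the pools at its introns are therefore given as a description, and no call among them is used as support.

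MEL cells are a virus-transformed line of red cell precursors that starts to mature when dimethyl sulfoxide (DMSO) is added. Both groups used here were wild type cells of that line. One group received no inducer and the other was kept in 2% DMSO for 5 days. Each consists of 4 long-read samples, from 2 biological replicates sequenced on both the RSII and the Sequel I instrument. In both, RNA was taken from chromatin isolated in buffers holding the transcription inhibitor α-amanitin and was depleted of polyadenylated and ribosomal RNA. The tables hold a single line per intron for each group, so the values below come from an uninduced and an induced pool, with no spread between replicates. Which of the 4 runs entered each pool is not given in the sources used here. The other 12 samples of the series (PRO-seq, and cells with an integrated human HBB gene) were not analysed here.

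MFSD2B exports sphingosine-1-phosphate, a signalling lipid, from red cells and platelets, and red cells are a main source of this lipid in plasma. Introns are removed by the spliceosome in consecutive steps: the RNA is first cut at the 5′ splice site, and the exons are then joined. A read of nascent RNA can show an intron as still present, as removed, or as cut at the 5′ end and not yet joined, the last being a splicing intermediate. Removal that is already visible in RNA on chromatin is called co-transcriptional splicing. An intron left in an otherwise spliced RNA is called retained.

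The gene lies on the minus strand of chromosome 12 (GRCm38). Its tabulated transcript has 14 exons, and all 13 introns lie between coding exons. The sequences below belong to the introns described most closely: the splice sites of introns 10 to 12, of introns 2 and 7, which were mostly spliced in both pools, and the acceptors of introns 3 and 4. Each 5′ site is given as 3 bases of exon and 6 of intron, and each 3′ site as 20 bases of intron and 3 of exon, from 5′ to 3′ along the transcript. Capitals mark the first bases and the last bases of the intron, and at intron 3 also the AG of another annotated acceptor. The sites come from the second deposited table, except those of intron 12, which were read from GENCODE release M21 transcripts that keep this intron as exon.
Intron 2, 5′ site: cagGTgagt
Intron 7, 5′ site: cagGTatgg
Intron 10, 5′ site: tgtGTgagt
Intron 11, 5′ site: ctgGTaggc
Intron 12, 5′ site: ggaGTcagt
Intron 2, 3′ site: catcctcttgatggcttcAGatc
Intron 7, 3′ site: cccgccttcctgttttgcAGata
Intron 10, 3′ site: tcacaggtctgtctccccAGgtg
Intron 11, 3′ site: tcccatgcccctgcccctAGgtc
Intron 12, 3′ site: tgctgctggtgtttctccAGgtt
Intron 3, 3′ site: tttcAGctgtgcttctacAGggc
Intron 4, 3′ site: cctccgaggggccatcccAGttc

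Intron 11 is 287 bases long (chr12:4865872-4866158, GRCm38, minus strand). It is printed whole because it was the intron with no spliced read before induction. The letters are those of GENCODE transcripts that retain it, with its first and last bases in capitals.
Intron 11: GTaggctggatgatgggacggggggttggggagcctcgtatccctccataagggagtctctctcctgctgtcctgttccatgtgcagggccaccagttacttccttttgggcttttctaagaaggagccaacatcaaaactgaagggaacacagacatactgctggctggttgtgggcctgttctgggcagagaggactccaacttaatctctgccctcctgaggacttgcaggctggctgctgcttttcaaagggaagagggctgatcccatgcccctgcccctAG

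The deposited GC content of intron 11, 55.7%, is that of these letters. At all 11 introns with deposited splice sites, the deposited letters that lie in exons, or in introns kept by a GENCODE transcript, matched those transcripts.

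The splicing of Mfsd2b was uneven along the gene before induction. Introns near the 5′ end were mostly removed, while introns 10 and 11 were mostly still present. In the induced pool introns 10 and 11 were each spliced in most reads. Intron 12 had too few reads to place, with 1 of 8 spliced before and 2 of 4 after induction. The share of reads spliced at an intron, out of spliced plus unspliced reads, is called co-transcriptional splicing efficiency (coSE) and was computed from the deposited counts. Intervals are 95% Wilson intervals and cover counting error only. Whether copies of a molecule were removed is not given in the sources used here.

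**Figure D1:**
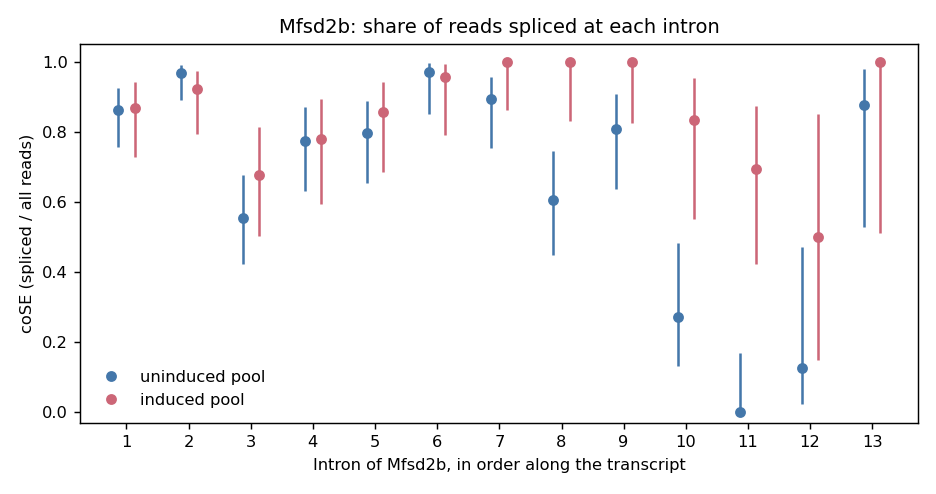
coSE (share of reads spliced, from 0 to 1) at the 13 introns of Mfsd2b, numbered along the transcript, in the uninduced and the induced pool. Points are pooled values and bars are 95% Wilson intervals. At intron 11 the uninduced point is at 0 and the induced point at 0.692.

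At intron 11, no read was spliced in the uninduced pool (0 of 19 reads), with a Wilson upper bound of 0.168. Where a count is 0, the share that 3 counts of the total would give is also printed as a limit, here 15.8%. In the induced pool 9 of 13 reads were spliced, a coSE of 0.692 (interval 0.424 to 0.873). These are the values that led to the choice of the gene. Intron 10 (chr12:4866269-4866448), just upstream, had 6 spliced among 22 uninduced reads, a coSE of 0.273 (interval 0.132 to 0.482). Its induced coSE was 0.833 (interval 0.552 to 0.953), from 10 of 12 reads. Intron 12 (chr12:4865314-4865727), just downstream, was spliced in 1 of 8 uninduced and 2 of 4 induced reads, too few to place it. The value of intron 11 was 0.27 below that of intron 10 in the uninduced pool and 0.14 below it in the induced pool, with intervals that overlap in both. Against intron 12 no order can be given. With the reads of introns 10 to 12 added together, a stretch picked after the values were seen, 7 of 49 observations were spliced before and 21 of 29 after induction. A read that covers several introns is counted at each, so these observations are not independent.

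Intron 13 (chr12:4864080-4865136) was spliced in 7 of 8 uninduced and 4 of 4 induced reads, again too few to place it. Which reads covered both this last intron and the introns before it is not recorded in the tables.

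Upstream of this stretch, introns 8 and 9 also had their lower coSE in the uninduced pool. Intron 8 (chr12:4866874-4867337) was spliced in 23 of 38 reads there (coSE 0.605, interval 0.447 to 0.744) and in 19 of 19 induced reads. Intron 9 (chr12:4866530-4866789) was spliced in 25 of 31 uninduced reads (0.806, interval 0.637 to 0.908) and in 18 of 18 induced reads. No unspliced read was seen at either in the induced pool, for which 3 counts of the 19 and 18 reads give limits of 15.8% and 16.7%. The intervals of intron 9 overlap between the pools and those of intron 8 do not.

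Introns 1 to 7 differed by at most 0.12 between the pools, with overlapping intervals at each. Intron 1 (chr12:4871502-4874270) was spliced in 56 of 65 uninduced and 33 of 38 induced reads, with coSE of 0.862 and 0.868. Intron 2 (chr12:4870624-4871375) was spliced in 61 of 63 and 35 of 38 reads, with coSE of 0.968 and 0.921. Intron 6 (chr12:4867703-4868912) was spliced in 33 of 34 and 22 of 23 reads, with coSE of 0.971 and 0.957. These 3 introns differed by at most 0.05 between the pools. Intron 7 (chr12:4867460-4867611) had 33 spliced among 37 uninduced reads, a coSE of 0.892, and 24 among 24 induced reads. For introns 1 to 7 together, 283 of 343 observations were spliced before and 180 of 209 after induction, shares of 0.825 and 0.861. For introns 8 to 12 the shares were 0.466 and 0.879. The division after intron 7 was made after the values were seen and is a description.

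Introns 3 to 5 formed a shallower dip, present in both pools. Intron 3 (chr12:4869659-4870498) was spliced in 31 of 56 uninduced reads (0.554, interval 0.424 to 0.676) and in 21 of 31 induced reads (0.677, interval 0.501 to 0.814). It was the lowest of the introns with at least 10 reads in the induced pool, where intron 11 followed. Intron 4 (chr12:4869211-4869534) was spliced in 34 of 44 and 21 of 27 reads, with coSE of 0.773 and 0.778. Intron 5 (chr12:4869044-4869131), 88 bases long and the shortest of the gene, was spliced in 35 of 44 and 24 of 28 reads, with coSE of 0.795 and 0.857. The intervals of these introns overlap between the pools.

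**Figure D2:**
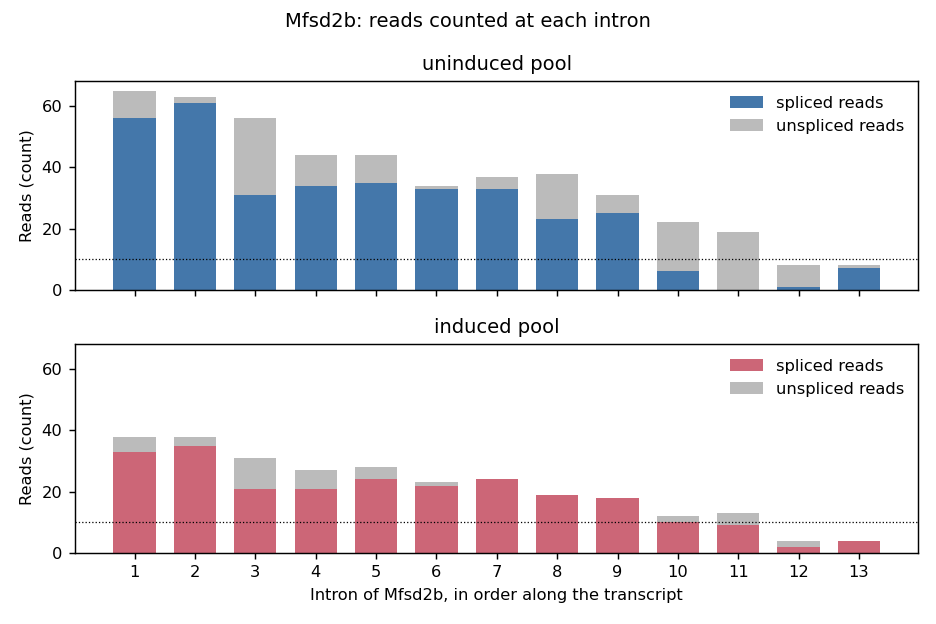
Reads counted at each Mfsd2b intron, spliced (coloured) and unspliced (grey), in the uninduced pool (top) and the induced pool (bottom); the dotted line marks 10 reads. Depth drops from 65 reads at intron 1 to 8 at intron 13 in the uninduced pool and from 38 to 4 in the induced pool, and the unspliced reads of introns 10 and 11 before induction outnumber the spliced ones.

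Depth limited what could be seen towards the 3′ end. Intron 1 had 65 uninduced and 38 induced reads, while introns 12 and 13 each had 8 and 4. The median over the 13 introns was 37 reads before and 23 after induction. A median of 37 reads is above that of 97.8% of the tabulated transcripts, so Mfsd2b was among the better covered genes.

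The share of nascent reads that came from Mfsd2b did not differ between the pools beyond counting error at any single intron. Per 1000000 intron observations of a pool, intron 1 had 156 reads before and 136 after induction, and intron 7 had 88.9 and 85.9. The ratio of induced to uninduced shares had a median of 0.871 over the 13 introns and ranged from 0.745 to 1.02. It was below 1 at 11 introns, which share reads. At each intron, the exact 95% interval of this ratio included 1, for example from 0.568 to 1.32 at intron 1. These intervals are wide, and a difference over the whole gene was not tested. The median ratio over all 9982 introns with at least 10 uninduced reads was 0.696, a set whose choice by uninduced depth lowers the ratio. In pooled cells, fewer cells that transcribe a gene and fewer reads per cell cannot be told apart.

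Over the 11 introns of Mfsd2b with at least 10 reads in each pool, coSE was higher in the induced pool at 9 and lower at 2, with a median difference of 0.11. Without intron 11 the median difference was 0.08 over 10 introns. Over all 4403 introns tested, the median difference was 0, and 42.7% were higher and 34.8% lower. By Fisher's exact test with Benjamini-Hochberg adjustment over the whole table, 1 of the 11 introns was called, intron 11, the intron used for the choice. Of all introns tested, 0.363% were called higher and 1.25% lower in the induced pool. Nothing is read from the count in Mfsd2b, since the choice used this contrast. The test compares 2 pools of libraries, not 2 conditions.

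**Figure D3:**
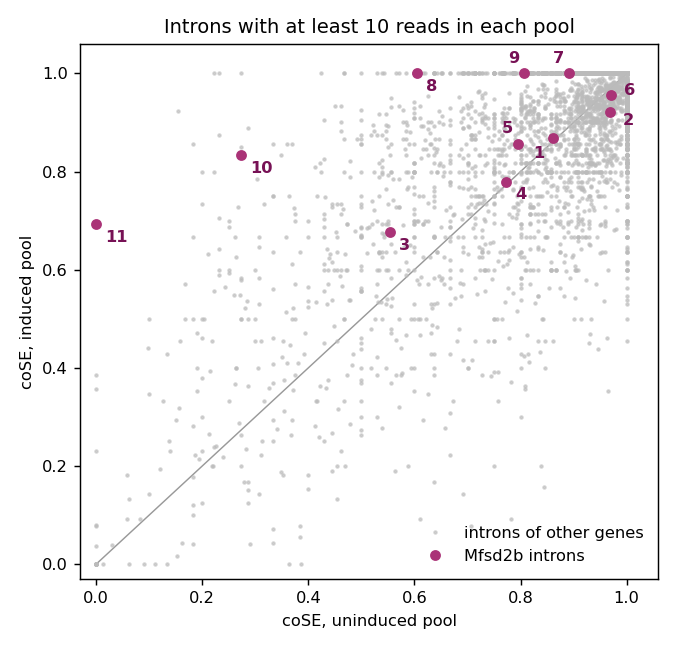
coSE in the uninduced pool (x axis) against coSE in the induced pool (y axis) for the 4403 introns with at least 10 reads in each pool; grey points are introns of other genes, coloured points are the 11 Mfsd2b introns, numbered, and the line marks equal values. Introns 8, 10 and 11 lie far above the line, at differences of 0.39, 0.56 and 0.69, while introns 1, 2, 4 and 6 lie within 0.05 of it.

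The median coSE of its introns other than 11 with at least 10 reads was 0.801 before and 0.895 after induction, over 10 introns each. Over all introns with at least 10 reads it was 0.933 (9982 introns) and 0.947 (6333 introns). Among introns within 1.5 times the median Mfsd2b length of 414 bases, it was 0.857 (1520 introns) and 0.889 (1040 introns). In the uninduced pool, 3.18% of all introns had a coSE below that of Mfsd2b intron 10, and in the induced pool 27.7% did. For intron 3, these shares were 9.53% and 14.2%. The best spliced introns stood nearer the middle, with 59.1% of introns below intron 2 and 59.7% below intron 6 in the uninduced pool. No test was made of these differences, because the gene was chosen for a low value.

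The values of intron 11 can be set beside those of other introns only as a description, because the gene was chosen by them. Of the 4403 introns tested, 21 had no spliced read in the uninduced pool. Of these, 14 had none in the induced pool either, and intron 11 of Mfsd2b alone was above 0.5 there; the next highest reached 0.385. The 5 introns of other genes nearest to it by their pair of coSE values were those of Mau2 (intron 6, 0.182 and 0.667), Upf1 (intron 12, 0.200 and 0.733), Rgp1 (intron 2, 0.167 and 0.571), Gpr89 (intron 4, 0.100 and 0.500) and Ppan (intron 6, 0.211 and 0.632). Their distances, as straight lines in coSE, were 0.184 to 0.219, on 10 to 20 reads per pool. The Wilson upper bound of intron 11 before induction was 0.168. A count of 0 alone therefore does not separate it from introns of low coSE. Mau2 encodes a loader of the cohesin ring, Upf1 a helicase of nonsense-mediated decay and Ppan a factor of ribosome assembly.

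The annotation of Mfsd2b lists several ways to join the exons, at introns of low and of high coSE. Of the 6 annotated transcripts that span intron 11, 2 remove it, 2 keep it as exon and 2 join other sites across it. The same numbers hold for intron 12. Intron 10 is removed in 4 of 6 transcripts, kept in 1 and crossed by another junction in 1. Introns 1, 4, 5 and 6 are each crossed by another junction in 1 transcript and kept in none, with uninduced coSE of 0.862, 0.773, 0.795 and 0.971. Introns 2, 7, 8, 9 and 13 are removed in all transcripts that span them, and their uninduced coSE ran from 0.605 at intron 8 to 0.968 at intron 2.

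The other junctions at introns 10 to 12 leave out exons. The transcript Mfsd2b-203 joins exon 11 to exon 13 (chr12:4865314-4866158) and skips exon 12, which is 144 bases long. Mfsd2b-202 joins exon 10 to exon 13 (chr12:4865314-4866448) and skips exons 11 and 12, of 110 and 144 bases. Mfsd2b-205 keeps introns 10 to 12 as exon, and Mfsd2b-207 keeps introns 11 and 12. In the annotation, Mfsd2b-202 is classed as a target of nonsense-mediated decay, which removes RNAs with an early stop, and the other 3 as retained intron transcripts. How a read with one of these junctions was counted at introns 10 to 12 is not given in the sources used here.

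Keeping these introns would end the reading frame early. The annotated coding sequence has 494 codons before its stop. With intron 11 kept, the first stop in frame is TAG at base 2 of the intron, inside the 5′ site printed above, after 380 codons. With intron 10 kept, the first stop is TGA at base 25 of the intron, after 351 codons, and with intron 12 kept it is TAG at base 77, after 453 codons. With exons 11 and 12 both skipped, as in Mfsd2b-202, the stop comes after 347 codons. With exon 12 alone skipped, the frame runs on to the annotated stop, after 446 codons. These are readings of the annotated sequence, and no protein was measured.

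Intron 3 also has alternatives in the annotation. Of 7 transcripts that span it, 3 remove it as tabulated, Mfsd2b-203 keeps it, and 3 use other junctions. In 2 of these 3, the acceptor lies 14 bases upstream, at the first AG marked in the intron 3 site above. With intron 3 kept, a TGA stands in frame at base 2, after 106 codons. Reads joined at the upstream acceptor would not match the tabulated intron exactly. How they were counted is not given here.

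Splice site scores differed among the introns, and the lowest 5′ scores belonged to introns 10 and 11. The scores are the authors' deposited values, and higher scores mean a closer match to a typical site. The 5′ score was 5.84 at intron 10 and 6.99 at intron 11, against 8.01 to 11.8 at introns 1 to 9 and a median of 8.78 over the 6537 introns of the second table. Of those introns, 10.9% scored below intron 10 and 19.3% below intron 11. At the 3′ end, intron 11 scored 11.6, above 90.4% of introns, with 15 pyrimidines among its last 20 bases. Intron 10 scored 9.00 there, near the median of 8.70. Introns 12 and 13 have no deposited score.

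Intron 4 paired a strong 5′ site with a weak 3′ site. Its 5′ score of 11.8 was above 99.8% of introns, and its 3′ score of -3.17 was among the lowest, with 0.214% of introns below it. The 3′ site printed above has 11 pyrimidines among its last 20 intron bases, against 15 at intron 7, which had the highest 3′ score of the gene (11.9). Introns 5 and 9 also had 11, with 3′ scores of 8.12 and 10.4. Intron 4 was spliced in 0.773 and 0.778 of reads, and intron 5 beside it in 0.795 and 0.857.

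**Figure D4:**
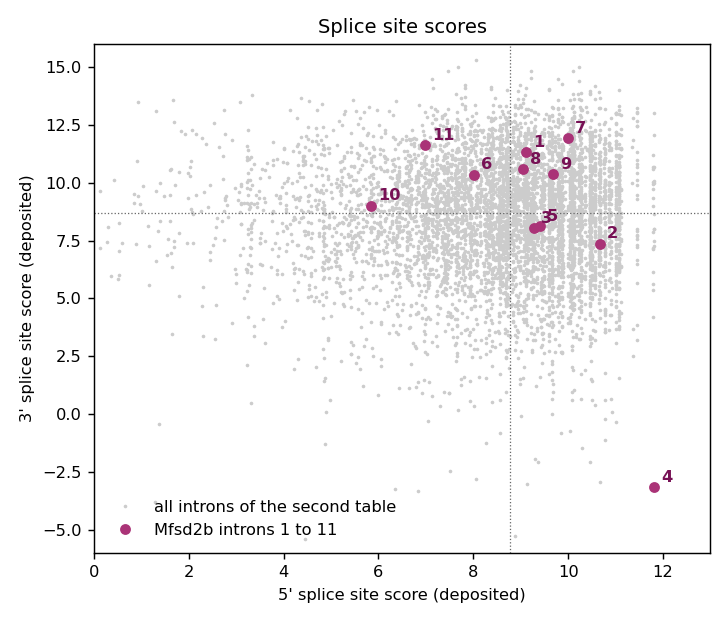
Deposited 5′ score (x axis) and 3′ score (y axis) of Mfsd2b introns 1 to 11, numbered, over all introns of the second table (grey); dotted lines mark the medians, 8.78 and 8.70, and 57 introns lie outside the axes. Introns 10 and 11 sit at the left, with 5′ scores of 5.84 and 6.99, and intron 4 at the bottom right, with a 3′ score of -3.17.

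Introns 10 and 11 were rich in G and C, as was intron 7 (55.9%). Their GC content was 59.4% and 55.7%, above 96.2% and 92.2% of introns in the second table, whose median was 43.9%. The GC content of introns 1 to 9 ran from 47.3% to 55.9%. Lengths of the 13 introns ranged from 88 to 2769 bases, and introns 10 to 12 had 180, 287 and 414 bases.

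Splicing intermediates of Mfsd2b were most numerous at introns 10 and 4 before induction. Their share among intermediates plus spliced reads, called NIC, is a deposited fraction. The spliced count behind it is that of the second table, which at most introns is below that of the first. At intron 10 the uninduced pool held 7 intermediates and 6 spliced reads, a NIC of 0.538 (interval 0.291 to 0.768). This NIC follows in part from the low spliced count of intron 10, since unspliced reads do not enter it. A NIC above 0.5 was found at 0.718% of the 5568 uninduced lines of the second table. Intron 10 has no induced line there. At intron 11, 2 intermediates and no spliced read were counted in the uninduced pool, and no intermediate and 6 spliced reads in the induced pool. Its NIC of 1 and 0 follows in part from the spliced reads used for the choice.

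The other introns had few intermediates. Intron 4, with the weak acceptor, had 5 beside 23 spliced reads before (NIC 0.179, interval 0.0788 to 0.356) and 1 beside 11 after induction (NIC 0.0833, interval 0.0149 to 0.354). Intron 3 had 3 in each pool, with NIC of 0.115 and 0.136. Intron 2 had 3 and 2, with NIC of 0.0526 and 0.0588. Intron 1 had none beside 49 and 29 spliced reads, for which 3 counts give limits of 6.12% and 10.3%.

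Added over its introns, Mfsd2b had 24 intermediates beside 270 spliced reads before (8.16%) and 10 beside 162 after induction (5.81%). These sums cover 11 and 8 introns, since introns 8 to 10 have no induced line. Over the 8 introns with both lines the shares were 5.83% (14 of 240) and 5.81% (10 of 172). Introns 10 and 11 held 9 of the 24. Over all introns of the second table the shares were 2.71% and 4.35%. NIC was above 0 at 8 of 11 uninduced and 6 of 8 induced introns of the gene, against 36.2% and 37.8% of all introns. A single intermediate is enough for this, so the share rises with depth, and Mfsd2b was covered more deeply, with a median of 37 uninduced reads per intron in the first table against 3 over all introns with a read. No test was made of these shares, since the introns of a gene share reads.

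The change in NIC was tested at the 8 introns of Mfsd2b with a value in both pools. By Fisher's exact test, adjusted over the 2039 introns with a line in both pools, none of the 8 passed, and 0.0981% of the 2039 did. The adjusted p was 1 at each, with the higher NIC after induction at 5 of the 8 and before it at 2. An unadjusted p under 0.05 was found at 1 of the 8 by Fisher's and by the chi-square test. That intron was intron 11, whose spliced reads led to the choice, so nothing is read from it. After adjustment the chi-square test called none of the 8 either. At 12 to 57 reads per value outside intron 11, only large differences in NIC would be detectable.

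Other genes of sphingosine-1-phosphate and sphingolipid metabolism were mostly too thinly covered to compare. Of a list of 38 such genes, 22 are in the first table, with 130 introns. Introns with at least 10 reads came from 8 genes before and 1 gene after induction. Among genes under that limit, singled out after their values were seen, Sphk1, a kinase that makes sphingosine-1-phosphate, had at most 4 reads at an intron. Spns2, another exporter of this lipid, had 0 reads before and 19 over 10 introns after induction. In the uninduced pool, Kdsr, a reductase of sphingolipid synthesis, had a median coSE of 1 over 7 introns. Ugcg, which makes glucosylceramide, had 0.750 over 5 introns, and the ceramidase gene Acer3 had 0.958 over 2. Ormdl1 and Ormdl2 encode regulators of sphingolipid synthesis. Both introns of Ormdl1 with that depth had a coSE of 1, while those of Ormdl2 had 0.222 and 0.714. Sgms1, a sphingomyelin synthase, had 0.867 and 0.909 at its pair of covered introns, and Cers4, a ceramide synthase, had 0.917 at 1 intron.

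Cers2, a ceramide synthase of very long chain lipids, was the gene of this list that could be compared. Its 6 tested introns had uninduced coSE of 0.290 to 0.719 and induced coSE of 0.0400 to 0.550. All 6 had the lower value in the induced pool, with a median difference of -0.25, against 34.8% of all introns tested. Introns of a gene share reads, so the 6 are not independent. No intron passed Fisher's exact test after adjustment over the whole table, the lowest adjusted p being 0.278. An unadjusted p under 0.05 was found at 2 of the 6, against 351 of all 4403 introns tested, and the chi-square test with adjustment called none.

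The erythroid identity of the pools was checked on marker genes. The 11 erythroid markers were all in the first table, with 2106 reads per 1000000 intron observations before and 34792 after induction. The rise was uneven among them. Klf1 had 9 uninduced and 11 induced reads and Gata1 had 91 and 128, while Tfrc had 213 and 2001. Slc4a1 and Epb42 had 0 uninduced reads, and 817 and 228 induced reads. Among markers of other blood cells, 3 were in the table (Ptprc, Pf4 and Itga2b), with 485 and 759 on the same scale. Itga2b had 26 uninduced and 202 induced reads, Pf4 had 80 and 10, and Ptprc had 96 and 0. Cd3e, Itgam, Csf1r, Mpo and Elane have no line. The part of these cell differences in the Mfsd2b values was not tested. In total the pools held 416379 and 279371 intron observations.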

How the data were processed

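Per the submitters' processing notes, cutadapt, minimap2, SAMtools, bedtools and Bowtie were used, with builds mm10 and dm3, without role, order or version. The deposited tables give raw read counts (spliced, unspliced, intermediates) per intron and pool, NIC as a deposited fraction, GC content as a deposited percent, and splice site scores as deposited scores. How introns were filtered and sites scored is not given in the sources used here. Tables name introns from the lowest coordinate; introns are numbered here along the transcript (deposited intron 2 is intron 11). Adding 2 to the deposited start and taking 1 from the end gave the GENCODE M21 introns of the gene exactly.

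coSE and intervals were computed with SciPy 1.17.1 and pandas 2.3.3 in Python 3.11.15. Fisher's exact tests covered all introns with at least 10 reads in each pool (coSE) or a line in both (NIC), called at an adjusted p (Benjamini-Hochberg) under 0.05. The coSE test was tested on simulated data. The members and gene lists were chosen with earlier results of these data known. Named introns are all those of Mfsd2b and the 5 of other genes, with that minimum, nearest to intron 11 in the pair of coSE values (Euclidean distance). Listed genes are named where an intron reached 10 reads in a pool, with exceptions named in the text. No replicate values were used. A marker gene of the lists is not reported here.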

Additional observations from a re-analysis of the deposited data

How the results depend on the processing

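No paired analysis was possible because the tables give a single line per intron for each condition, and for the same reason neither the fit with a replicate block nor those without each replicate were run. Of the alternatives' values, 34 stayed within the limit set for them (1.5 times for a count, the interval for a share or ratio) and 12 moved further. Among all introns tested, 71 were called for coSE, 16 higher and 55 lower in the induced pool. Without a coverage minimum there were 36 (6 and 30), and among introns found in every annotated transcript that spans them 31 (4 and 27). In Mfsd2b, chosen on this contrast, the call is no support under any setting. At a minimum of 20 reads 0 of 7 tested Mfsd2b introns were called, and among introns in every spanning transcript 0 of 4, intron 11 not being tested in either. When intermediates were divided by every read at the intron, 0 introns of the table were called for NIC, against 2 by Fisher's exact test as reported (34 at an unadjusted p under 0.05). The median share ratio of Mfsd2b was 1.02 with spliced reads alone. Introns 12 and 13, with at most 8 reads, cannot show a difference of any moderate size.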

Other observations

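The spread of coSE within Mfsd2b can be set beside that within other genes, as a description, since intron 11 was chosen for its value. Over genes with at least 8 introns of 10 or more reads, the median distance between the highest and the lowest intron was 0.333 in the uninduced pool (381 genes) and 0.316 in the induced pool (239 genes). For Mfsd2b it was 0.971 and 0.323, on 11 introns in each. A spread as wide as that of Mfsd2b was reached by 13 genes in the uninduced pool and by 118 in the induced pool, Mfsd2b included.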
